A study of Schizosaccharomyces pombe with 4 samples.

Results

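The genes described here are 9 fission yeast (Schizosaccharomyces pombe) genes for enzymes that cut or re-join the glucans of the cell wall. They are exg1 (SPBC1105.05), exg2 (SPAC12B10.11), exg3 (SPBC2D10.05), gas1 (SPAC19B12.02C), gas2 (SPBC29A10.08), gas4 (SPBC342.03), gas5 (SPAC11E3.13C), eng2 (SPAC23D3.10C) and agn2 (SPBC646.06C). They were chosen by gene symbol from 4880 genes named on the array, with earlier results of these data known. Each had 1 spot with a value on all 4 arrays, so all 9 entered the tests, which covered 4771 genes.

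Each array carried polyA RNA of one strain in both channels, taken from cells 30 min after a move to 36 °C in the first and from cells growing at 25 °C in YES, a rich liquid medium, in the second. Strain JV558 is the wild type. Strain JV565 carries the temperature-sensitive allele mmi1-ts3; the mmi1 product binds meiotic transcripts in growing cells and marks them for destruction. Each strain had 2 arrays, both strains received the same shift, and the series record names the presence or absence of mmi1 function as the question.

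The fission yeast wall is built of beta-glucan and alpha-glucan with galactomannan. Synthases in the plasma membrane extrude linear glucan chains. Glucanosyltransferases of the Gas family then cut and re-ligate beta-1,3-glucan chains so that they lengthen, and hydrolases loosen or remove glucan where the wall grows, where daughter cells part, or where the mother wall (the ascus) opens around spores.

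A value below is a response: the log2 ratio of 36 °C over 25 °C on one array, centred on the median of all genes tested on that array. The log base and the direction of the ratio are not given in the sources used here. They were read from the values, and the direction is likely because 12 of 12 listed heat shock genes gave positive values throughout; a natural log would move every value further from 0. Values were present for 5121 to 5184 of 5188 spots per array, and nothing states that replicate arrays came from separate cultures, so p-values may measure technical spread alone. Means carry the SD of the 2 arrays of a strain, and the precision is limited by their number. No array set one strain against the other, so a lower response does not say that the transcript was scarcer. Adjusted p-values are from limma with Benjamini-Hochberg adjustment over all genes tested, and "rose" or "fell" is used for an adjusted p under 0.05. For each gene limma used a spread shared by both strains, so a p-value does not rest on the SD printed beside it. Where an array was left out, its strain's p-value rests on the remaining array and on the spread within the other strain. For each of the 9 genes another RefSeq gene overlaps its span, for 8 of them a long non-coding RNA gene. The strand that the spots detect is not given here.

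Over both strains, 2 of the 9 genes rose, 5 fell and 2 did not pass the test. Across all genes the test called 23.1% higher and 24.8% lower. Values were above 0 on all 4 arrays for 2 of the 9 (background 29.9%) and below 0 on all 4 for 5 of the 9 (31.6%). The median response of the 9 was −0.73, against 0.02 for all genes tested. The genes that rose were exg3, 4.53-fold, and gas2, 2.01-fold. Those that fell were gas4, gas5, exg1, gas1 and agn2, to between 0.351 and 0.601 of their 25 °C level. Taken by strain, the wild type had 2 called higher (background 13.5%) and 3 lower (14.5%), and mmi1-ts3 had 2 higher (14.9%) and 4 lower (19.6%). The plot of the responses by array shows every value.

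**Figure D1:**
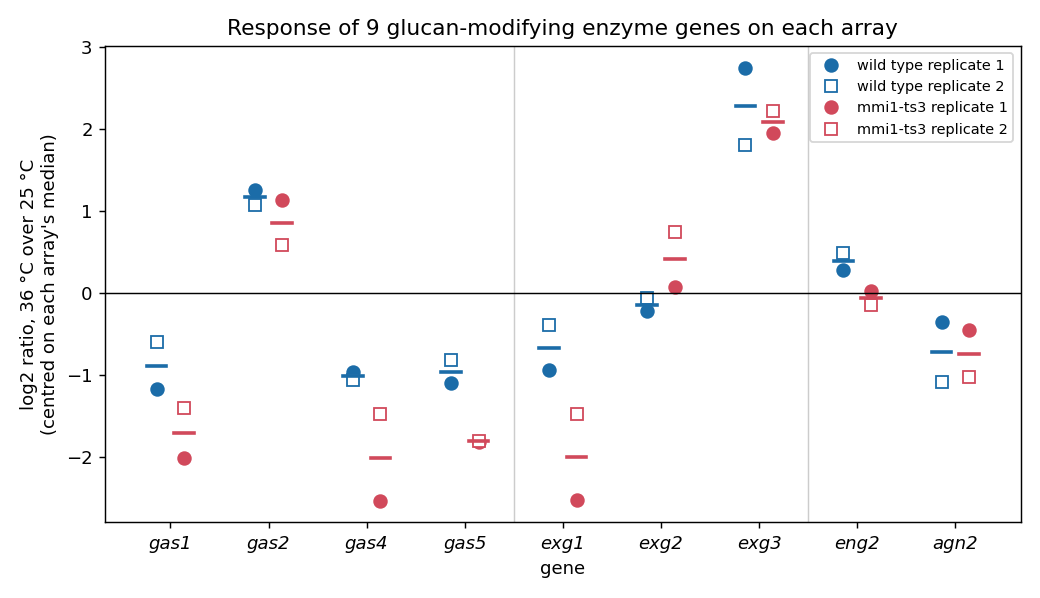
Response of each of the 9 genes (vertical axis, log2 ratio of 36 °C over 25 °C, centred on each array's median) on the 2 wild-type arrays (blue) and the 2 mmi1-ts3 arrays (red), with filled circles for replicate 1, open squares for replicate 2 and short bars for the strain means. Grey lines part the Gas transferases, the Exg glucosidases and the ascus wall hydrolases; exg3 and gas2 lie above 0 on all 4 arrays, and gas1, gas4, gas5, exg1 and agn2 lie below 0 on all 4.

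The Gas transferases did not move together. Of the 4, gas1, gas4 and gas5 fell and gas2 rose over both strains. The gene gas1 encodes the Gas enzyme that vegetative cells cannot do without. Its response was −1.17 and −0.60 in the wild type (replicates 1 and 2) and −2.01 and −1.40 in the mutant (replicates 1 and 2). All 4 arrays were below 0, and both mutant arrays lay below both wild-type arrays. The mean over both strains was −1.30 ± 0.17 (SE), or 0.407-fold (adjusted p = 0.00246). Within mmi1-ts3 gas1 fell (−1.71 ± 0.43, SD, n = 2 arrays, limma adjusted p = 0.00512). Within the wild type the mean was −0.89 ± 0.41 (SD, n = 2 arrays), with an adjusted p of 0.0438 by limma. That call was lost without either wild-type array (adjusted p = 0.219 without replicate 1 and 0.0647 without replicate 2) and without centring (0.059). It was also lost when spots were centred on their neighbours in the table, called local centring below (−0.51, adjusted p = 0.201).

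The gene gas5, a second transferase of growing cells, gave nearly equal values on the mutant arrays. Its response was −1.10 and −0.82 for the wild type, against −1.82 and −1.81 for the mutant. The strains did not overlap. The mean over both was −1.39 ± 0.12 (SE), or 0.383-fold (adjusted p = 0.000644), and gas5 fell within wild-type cells (−0.96 ± 0.20, SD, n = 2 arrays; limma adjusted p = 0.0133) and within mmi1-ts3 (−1.81 ± 0.0064, SD; limma adjusted p = 0.00165). The wild-type call was lost without wild-type replicate 1 (−0.82, adjusted p = 0.0733) and with local centring (0.0512). A protein-coding gene that overlaps the gas5 span, SPAC11E3.12, had a mean response of 0.25 over both strains and did not pass the test (adjusted p = 0.227).

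The gene gas4 is known for the maturation of ascospores, a product of meiosis. Its response was −0.96 and −1.07 for the wild type, against −2.53 and −1.48 for the mutant. All 4 arrays were below 0, and the wild-type arrays lay close together while the mutant arrays spread further (SD 0.07 and 0.74). Over both strains gas4 had the lowest mean of the 9 genes, −1.51 ± 0.19 (SE), or 0.351-fold (adjusted p = 0.00234). It was 205th from the lowest of the 4771 genes. Within mmi1-ts3 gas4 fell (−2.01 ± 0.74, SD, n = 2 arrays, limma adjusted p = 0.00479). Spot brightness is not used here, so how far this transcript stood above background at 25 °C was not tested. The wild-type call (adjusted p = 0.0445) was lost without either wild-type array (0.124 and 0.175 without replicates 1 and 2) and without centring (0.0507).

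The gene gas2, the remaining Gas transferase, had a response of 1.25 and 1.07 for the wild type, against 1.12 and 0.58 for the mutant. All 4 values were positive, and the strains overlapped. Its mean over both was 1.01 ± 0.14 (SE), or 2.01-fold (adjusted p = 0.00317), and it was called higher in wild-type cells (1.16 ± 0.12, SD, n = 2 arrays; limma adjusted p = 0.0122) and in mmi1-ts3 (0.85 ± 0.38, SD; limma adjusted p = 0.0244). The wild-type call was lost without either wild-type array (adjusted p = 0.0615 and 0.0509 without replicates 1 and 2). The mutant call was lost without mmi1-ts3 replicate 1 (0.58, adjusted p = 0.27) and with local centring (0.0619). The span of gas2 overlaps that of tri1, whose own mean response over both strains was 0.54 (adjusted p = 0.0154).

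The 3 Exg enzymes act on beta-glucan at different places, with Exg1 secreted, Exg2 anchored at the plasma membrane and Exg3 kept in the cytoplasm. Their responses differed in sign. The gene exg1 gave −0.95 and −0.39 for the wild type, against −2.53 and −1.47 for the mutant. Each strain's replicate 1 was the lower, and the strains did not overlap. Over both strains exg1 fell to 0.397-fold (−1.33 ± 0.21, SE; adjusted p = 0.00467). It fell in mmi1-ts3 (−2.00 ± 0.75, SD, n = 2 arrays; limma adjusted p = 0.0061), while the wild-type mean of −0.67 ± 0.39 did not pass (limma adjusted p = 0.154). Spots around it in the table were high on all 4 arrays, with local medians from 0.28 to 0.60; centred on them, the wild-type mean was −1.12 and passed (adjusted p = 0.0345).

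The gene exg3 gave 2.74 and 1.80 for the wild type, against 1.95 and 2.22 for the mutant. It had the highest value of the 9 genes on every array, and the mutant arrays lay between the wild-type arrays. The mean over both strains was 2.18 ± 0.19 (SE), or 4.53-fold (adjusted p = 0.00061), which placed exg3 92nd from the highest of the 4771 genes. It rose in wild-type cells (2.27 ± 0.67, SD, n = 2 arrays; limma adjusted p = 0.00368) and in mmi1-ts3 (2.09 ± 0.19, SD; limma adjusted p = 0.0038), and kept these calls with any 1 array left out.

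The gene exg2 gave −0.23 and −0.07 for the wild type, against 0.08 and 0.74 for the mutant. The centred values were negative in the wild type and positive in the mutant. Before centring, wild-type replicate 2 stood at 0.002. The mutant mean rested largely on replicate 2, and was 0.08 without that array. Neither strain's mean passed the test, at −0.15 ± 0.11 (SD, n = 2 arrays) in wild-type cells (limma adjusted p = 0.655) and 0.41 ± 0.47 in mmi1-ts3 (limma adjusted p = 0.197).

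Both remaining enzymes are known for opening the ascus wall so that spores are freed. Eng2 is an endo-beta-1,3-glucanase and Agn2 an endo-alpha-1,3-glucanase. The gene eng2 gave 0.28 and 0.48 for the wild type, against 0.03 and −0.15 for the mutant. The mutant arrays were lower and lay on either side of 0. Its mean over both strains was 0.16 ± 0.12 (SE) and did not pass (adjusted p = 0.313), with a 95% interval from −0.14 to 0.46. With local centring it was 0.40 and passed (adjusted p = 0.0251).

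The gene agn2 gave −0.36 and −1.09 for the wild type, against −0.45 and −1.03 for the mutant. Replicate 2 was the lower in each strain, and the strains overlapped. Its mean over both strains was −0.73 ± 0.18 (SE), or 0.601-fold (adjusted p = 0.0203). This call was lost without wild-type replicate 2 (−0.55, adjusted p = 0.0643) and without mmi1-ts3 replicate 2 (−0.59, adjusted p = 0.0576). Neither strain alone passed, with an adjusted p of 0.0865 for wild-type cells and 0.0738 for the mutant; with local centring both passed (0.0139 and 0.0163).

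By the mean over both strains the order ran from exg3 through gas2, eng2, exg2, agn2, gas1, exg1 and gas5 to gas4. The neighbours eng2 and exg2 differed by less than their SE, and the 95% intervals of gas1 (−1.72 to −0.87), exg1 (−1.86 to −0.81), gas5 (−1.69 to −1.08) and gas4 (−2.00 to −1.03) overlapped throughout. The interval of agn2 (−1.18 to −0.28) overlapped these as well. The intervals of exg3 (1.71 to 2.64) and gas2 (0.65 to 1.36) overlapped neither each other nor those of the other 7 genes, and those of eng2 and exg2 (−0.25 to 0.51) included 0.

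The comparison of the strains gave no gene past the threshold. Over all genes, limma called 0 higher and 0 lower in the mutant (percent called 0 in each direction), with 49 higher (1.03%) and 41 lower (0.859%) at an unadjusted p under 0.05. All 9 members had an adjusted p of 0.998. The median difference of the 9 was −0.44 against −0.07 for all genes. Of the 9, 8 were below 0, as were 2900 of all 4771 genes tested. Both mmi1-ts3 arrays lay below both wild-type arrays for 5 of the 9, namely exg1, gas1, gas4, gas5 and eng2, against a background of 20.4%. They lay above for exg2 alone, against 9.31%. In the plot of the strains against each other, exg1, gas1, gas4 and gas5 lie at the lower edge of the cloud of genes.

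**Figure D2:**
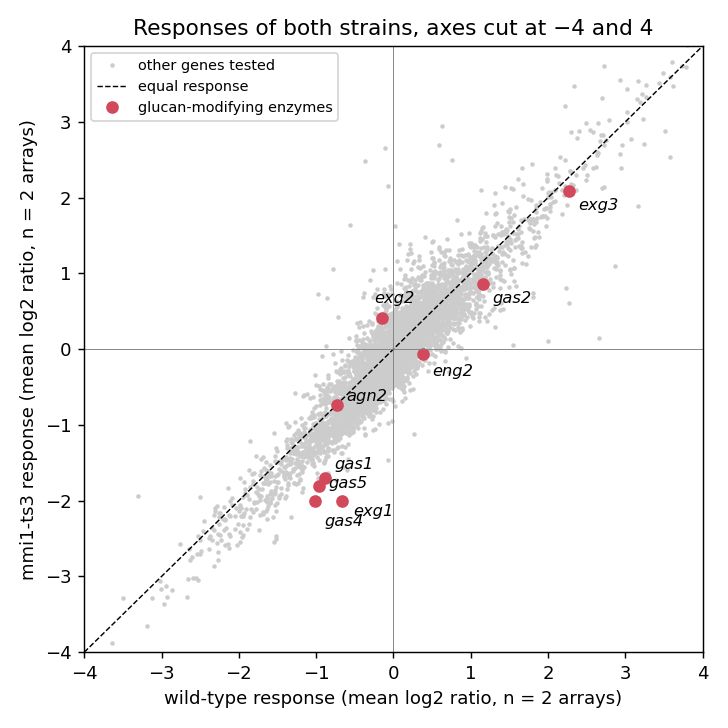
Mean response of the wild type (horizontal axis, log2 ratio, n = 2 arrays) against that of mmi1-ts3 (vertical axis, log2 ratio, n = 2 arrays) for the genes tested, with the 9 glucan-modifying enzyme genes in red, equal responses on the dashed line and both axes cut at −4 and 4, which leaves out 24 genes. The points of exg1, gas1, gas4 and gas5 lie below the dashed line, at −0.67 to −1.01 on the horizontal axis and −1.71 to −2.01 on the vertical one.

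The largest difference of the 9 was that of exg1, at −1.33 ± 0.42 (SE), with a 95% interval from −2.39 to −0.27. It was 9th from the lowest of the 4771 differences. The 2 array sets, one with a code in the titles and one without, gave −1.58 (uncoded) and −1.08 (coded), and with 1 array left out the value ran from −1.86 to −0.80. The difference of gas5 was −0.85 ± 0.24 (95% interval −1.45 to −0.25), and it was similar in the uncoded (−0.72) and coded (−0.98) sets. That of gas1 was −0.82 ± 0.34 (−1.66 to 0.03), with −0.84 and −0.80 in the sets.

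For gas4 the difference was −0.99 ± 0.39 (95% interval −1.97 to −0.02). The sets disagreed in size, with −1.57 in the uncoded set and −0.42 in the coded one, and without mmi1-ts3 replicate 1 the value was −0.47. These 4 genes were 9th, 18th, 32nd and 34th from the lowest of all differences, in the order exg1, gas4, gas5 and gas1. Unadjusted p-values from limma were 0.0221 for exg1, 0.0463 for gas4, 0.0142 for gas5 and 0.0554 for gas1.

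The other 5 genes had intervals that included 0. The difference was 0.55 ± 0.31 for exg2 (95% interval −0.21 to 1.32), −0.44 ± 0.24 for eng2 (−1.04 to 0.16) and −0.31 ± 0.28 for gas2 (−1.02 to 0.40). It was −0.18 ± 0.37 for exg3 (−1.11 to 0.74), with −0.79 in the uncoded set and 0.42 in the coded one. The difference of agn2 was −0.01 ± 0.36, and its interval, −0.91 to 0.89, leaves room for nearly 2-fold either way.

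**Figure D3:**
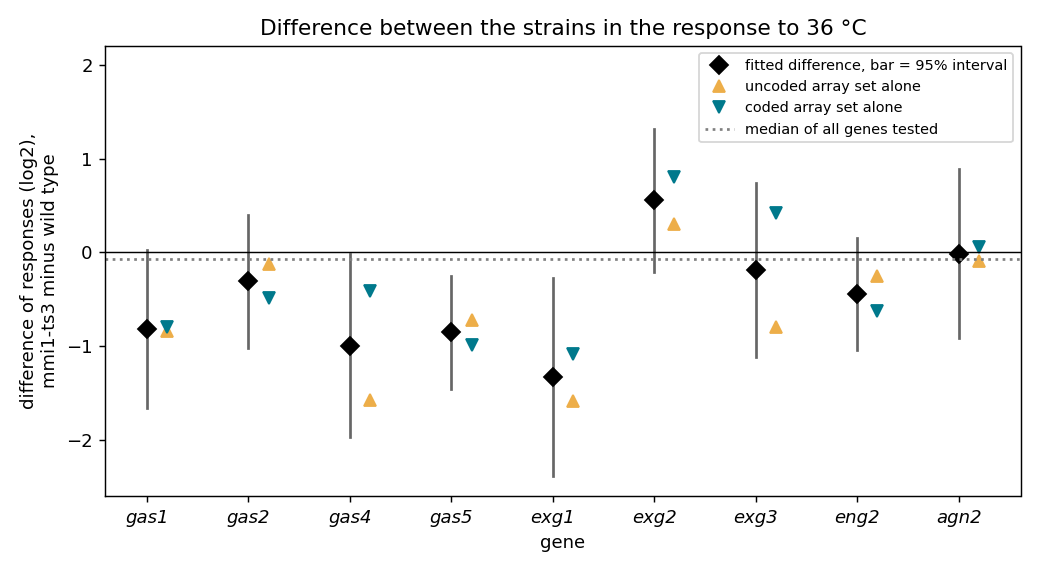
Difference of the responses (vertical axis, log2, mmi1-ts3 minus wild type) for each of the 9 genes, with the fitted value as a black diamond, its 95% interval as a bar (n = 2 arrays per strain) and the difference within the uncoded and the coded array set as triangles; the dotted line marks the median of all genes, −0.07. The values of exg1, gas1, gas4, gas5, eng2 and gas2 are negative in both sets, and those of exg3 and agn2 differ in sign between the sets.

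The gene whose 4 responses came nearest was found for each of the 9 by the root mean square distance over the 4 arrays. For both exg1 (distance 0.22) and gas1 (0.12) it was slp1, an activator of anaphase. Among the 9 themselves, gas1 was the second nearest of all genes to exg1 (0.30), exg1 the fourth nearest to gas4 (0.34) and gas5 the seventh nearest to gas1 (0.25). For gas5 the nearest of the 9 was gas1, the same pair at 0.25, in place 12 of all genes. The remaining members lay further from any other of the 9. Their nearest member was in place 340 for exg3 (1.24), 1530 for gas2 (0.87) and 1655 for exg2 (0.58). It was in place 2186 for eng2 (0.58) and 2187 for agn2 (0.88). A place depends on how many genes have similar values, so places and distances need not rank alike. The gene nearest to exg3 was hsp20 (0.20), to gas5 mge1 (0.17) and to gas4 sir2 (0.20). For exg2 it was ptc4 (0.07), for eng2 yaf9 (0.04), for gas2 SPOM_SPAC24H6.08 (0.09) and for agn2 SPOM_SPCC737.07C (0.03). The distances of exg2, eng2, gas2 and agn2 were below the median replicate SD over genes (0.24 in the wild type, 0.20 in mmi1-ts3). Which gene is nearest to them is therefore not resolved.

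Other wall genes were described from lists, by the mean over both strains and against the background of 23.1% higher and 24.8% lower. Of 9 glucan synthase genes, 4 fell and 0 rose (median −0.29). The beta-glucan synthases bgs4 (−1.28), bgs1 (−1.25) and bgs3 (−1.16) fell, and the alpha-glucan synthase homologue mok12 fell by 0.74. Taken by strain, mok12 passed in the wild type (−1.01, limma adjusted p = 0.0271) and not in mmi1-ts3 (−0.48, limma adjusted p = 0.162). In the strain difference none of the 9 passed, and the largest was that of mok12, at 0.53 ± 0.32 (from 0.23 to 0.83 with 1 array left out).

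Of 6 tested genes for other wall proteins, 4 fell and 1, bgl2 (0.73), rose (median −1.26). Those with the largest values were pwp1 (−2.05), asl1 (−1.42), the galactosyltransferase gene gma12 (−1.27) and psu1 (−1.25). The strain difference was largest for bgl2, at −0.38 ± 0.28 (from −0.63 to −0.13 with 1 array left out). The 15 genes of cell integrity signalling had a median of −0.11, and 2 of them rose and 1 fell. They were the transcription factor gene atf1 (1.46), the GTPase gene rho5 (0.95) and rho1 (−0.58), the GTPase that activates beta-glucan synthase. The call of rho1 was lost without mmi1-ts3 replicate 1 (−0.55, adjusted p = 0.0567) and with local centring (−0.20, adjusted p = 0.237). The largest strain difference was that of pek1 (−0.80 ± 0.46), which ran from −1.43 to −0.18 with 1 array left out.

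**Figure D4:**
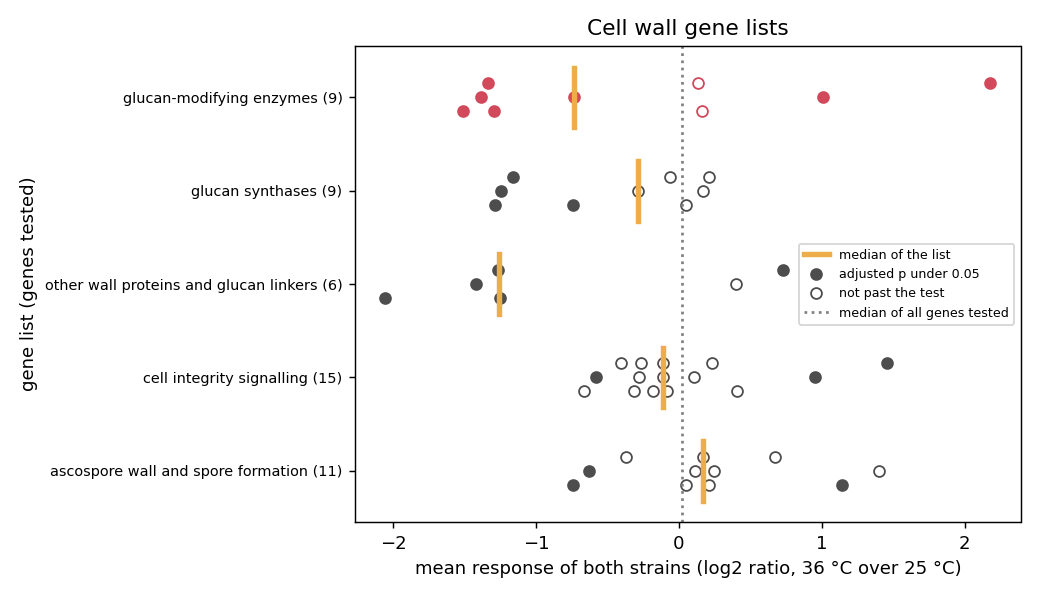
Mean response of both strains (horizontal axis, log2 ratio of 36 °C over 25 °C) for each tested gene of the 9 glucan-modifying enzymes (red) and of 4 other wall lists (grey), with filled points past the test, open points not past it, a yellow bar at each list's median and a dotted line at the median of all genes, 0.02. The glucan-modifying enzymes run from −1.51 to 2.18, and the glucan synthases past the test lie from −1.28 to −0.74. The genes bgs2, mok12, mok13 and mok14 are drawn in both the glucan synthase list and the ascospore list.

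Markers of sporulating and mating cells were measured because gas4, eng2 and agn2 are known from spore formation. Of 11 tested genes of the ascospore wall and spore formation, 1 rose and 2 fell. The median was 0.17, with per-array medians from −0.20 to 0.26. The genes bgs2, mok12, mok13 and mok14 are in both this list and that of the glucan synthases. The gene cda1, a chitin deacetylase, rose (1.14), and mok12 and chs1, a chitin synthase (−0.63), fell. The call of chs1 was lost without wild-type replicate 1 (−0.53, adjusted p = 0.0583) or mmi1-ts3 replicate 1 (−0.50, adjusted p = 0.0876). The largest strain difference was that of spo15, at −2.50 ± 2.03, which rested on a single value of 5.92 on wild-type replicate 2 and was 0.77 without that array. Of 4 tested mating genes, 0 passed in the mean over both strains, with a median of 0.04, and the pheromone gene mfm1 had the largest strain difference (1.09 ± 0.53, from 0.34 to 1.84 with 1 array left out). Ratios do not give the share of such cells, and in bulk RNA fewer cells of a type and less RNA per cell cannot be told apart.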

How the data were processed

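Each deposited value is the ratio of an array's 2 channels on a log2 scale, a base inferred here from the range (largest 7.81); the authors' background correction, normalization and spot filters are not given in the sources used here. The label field gives Cy5 for channel 1 and the label protocol Cy3 without mention of swapped dyes. Any dye bias shared by the arrays is therefore part of each response but drops out between strains.

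Spots were named from the array's annotation and RefSeq (ASM294v3, names and neighbours only); 4930 of 4933 spots with 1 gene matched by gene ID. Spots of a gene were averaged, and the 4771 genes with 4 values were kept. Each array was centred on its median (−0.10 and 0.07 subtracted for the wild type, −0.00 and 0.10 for mmi1-ts3). A mean for each strain was fitted with limma 3.58.1 in R 4.3.3 (lmFit, eBayes; 2 residual and 3.56 prior degrees of freedom). Each strain's mean, the mean of the strains and their difference were tested, two-sided, with Benjamini-Hochberg adjustment over all genes and a threshold of 0.05. The fit was tested on simulated data, with an outcome that is not given here. The simulated arrays deviated independently, so the correlation of same-numbered arrays described below was not covered. No exact permutation test is reported, because 2 arrays against 2 reach a p of 0.333 at best.

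Replicates were numbered in record order; replicate 1 is the array with no code in its title and replicate 2 the coded one. The 13 alternatives covered centring, scaling, quantile normalization, the variance model, the array set as a block, the genes kept, the log base and each array left out; local centring subtracts the median of 101 neighbouring lines of the table. The text names the 9 genes and, from each list, up to 4 genes past the test in the mean of the strains by absolute value, the largest strain difference, and the gene nearest to each of the 9. The 9 genes and the lists were chosen with earlier results of these data known. List genes with no spot or without 4 values were not analysed here. A further list of wall genes is not reported here. No sequences were used.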

Additional observations from a re-analysis of the deposited data

Results flagged for a closer look

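The response of exg2 was below 0 on both wild-type arrays (−0.23 and −0.07) and above 0 on both mmi1-ts3 arrays (0.08 and 0.74). Neither strain's mean passed the test (limma, adjusted p = 0.655 and 0.197). The difference was 0.55 and did not pass over all genes (limma, adjusted p = 0.998, and at least 0.772 over the alternatives). Before centring, the value on wild-type replicate 2 was 0.002, so its negative sign came from the centring. With local centring the wild-type mean was 0.01.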

How the results depend on the processing

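Over the 13 alternatives the mean response of both strains gave between 6 and 8 of the 9 genes past the test, against 7. Directions of exg1, exg3, gas1, gas2, gas4, gas5 and agn2 held there in all 13. Not all 13 could turn a sign: the variance models and the array-set block leave these means unchanged, and the log base only rescales them. Each comparison had 117 checks of single genes (9 genes under 13 settings). The side of the threshold and the direction were kept in 113 for the mean of the strains and 109 for mmi1-ts3. For the wild type 11 calls were lost, 4 gained and 1 sign turned. The strain difference kept 109, but none of the 9 was called under any setting, so all 8 changes were turned signs. The log base leaves every p-value as it was. The wild-type response had 5 of the 9 genes past the test, 3 without centring, and 1 to 5 with an array left out (1 without wild-type replicate 1, 2 without replicate 2). Over all genes its 1336 calls became 649 to 1346 with an array left out, and the 1644 calls of mmi1-ts3 became 902 to 1793; fewer arrays enter those fits. The strain difference had 0 calls, 3 with local centring (all higher, none of the 9) and 0 to 2 with an array left out (2 without mmi1-ts3 replicate 2, none of the 9).

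Some signs turned. With local centring the wild-type response of exg2 was 0.01, the mmi1-ts3 response of eng2 0.30, the difference of exg3 0.004 and that of agn2 0.078. The difference of agn2 was also 0.052 without centring, 0.019 with scaled arrays and 0.091 with quantile normalization; the cause was not tested. With an array left out, the mean response of exg2 ran from −0.035 to 0.30, the mmi1-ts3 response of eng2 from −0.15 to 0.026, and the differences of exg3 from −0.66 to 0.29, of agn2 from −0.38 to 0.35 and of spo15 from −5.78 to 0.77.

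The labels do not say whether same-numbered arrays, which share an array set, are paired. Deviations of same-numbered arrays from their strain means correlated at 0.379 over 4771 genes, a hint from the data. With the array set as a replicate block the calls over all genes rose from 1336 to 1847 in the wild type and from 1644 to 2169 in mmi1-ts3. The wild type then had 7 of the 9 genes past the test, with exg1 (adjusted p = 0.0324) and agn2 (0.0183) added. In mmi1-ts3 agn2 was added (0.0143). The strain difference kept 0 calls, with adjusted p from 0.772 to 0.992 for the 9 genes. Signal over background was not analysed here.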
